A study of Mus musculus with 10 samples.

Results

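The 10 genes described here encode receptors of natural killer (NK) cells and ligands of the NKG2D receptor, and their RNA was counted in cultured mouse TH2 cells, a helper T cell subset that acts in allergy. They are the receptor genes Klrd1, Klrc1, Klrc2, Klrk1, Klrg1, Klra4 and Ncr1 and the ligand genes H60b, Raet1e and Ulbp1, 10 of 49671 gene IDs in the count table. All 10 were present in the table. They were chosen by the CPM and fold changes they showed between the diets in these same libraries, so the diet differences are given for them as a description, with no test. The count filter was passed by 9 of them, with Raet1e below it. The deficient group consisted of 7 libraries from offspring bred and reared without ultraviolet light on a diet (TD97340) lacking vitamin D metabolites. The control group consisted of 3 libraries from mice on a standard diet, labelled regular, that supplied vitamin D3 at 400 IU per kg. All the mice were C57BL/6 of genotype WT and of the second generation, and naive CD4+ T cells were isolated from them and polarised into TH2 cells until day 5. Batch 1 held 5 deficient and 2 control libraries, and batch 2 held deficient libraries 6 and 7 and control library 3. Deficient libraries held 7029207 to 13433276 counts and control libraries 5800698 to 6462146. Nothing in the labels ties each library to a mouse of its own, and the p-values therefore reflect a spread between libraries that may be technical.

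NK cells and cytotoxic T cells weigh activating against inhibitory receptors when they meet another cell. CD94, the product of Klrd1, pairs with NKG2A, an inhibitory chain encoded by Klrc1, or with NKG2C, an activating chain encoded by Klrc2, and both pairs read the class Ib molecule Qa-1. NKG2D, the product of Klrk1, is an activating receptor that signals through the adaptors DAP10 and DAP12 and recognises stress-induced relatives of MHC class I, among them H60b, the RAE-1 proteins and MULT1. Cytotoxic lymphocytes carry most of these receptors, while helper T cells are usually low in them.

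The sequences of the inhibitory and the activating NKG2 gene are shown first because reads cannot always tell them apart. Klrc1 and Klrc2 are near copies on chromosome 6. Of their coding sequences, 732 bases in Klrc1 and 714 in Klrc2 without the stop codon, 714 bases aligned and 593 of these (83.1%) were identical. Their last 120 coding bases (bases 613 to 732 of Klrc1 and 595 to 714 of Klrc2) differ at 2 positions, in capitals here:
Klrc1: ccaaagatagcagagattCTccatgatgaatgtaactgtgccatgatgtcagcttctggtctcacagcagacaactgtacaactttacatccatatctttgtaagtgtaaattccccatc
Klrc2: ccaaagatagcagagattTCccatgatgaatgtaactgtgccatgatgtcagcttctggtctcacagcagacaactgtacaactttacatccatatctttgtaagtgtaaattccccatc
Of all 50-base stretches in the annotated transcripts of Klrc1, 38.6% also occur in another gene, against 16.3% for Klrc2. The share was 44.7% for Raet1e, mostly with Raet1d, 7.58% for H60b, 4.68% for Klra4 and 1.76% for Ulbp1, and none of the stretches of Klrd1, Klrk1, Klrg1 or Ncr1 was shared. Counts of Klrc1, Klrc2 and Raet1e are therefore uncertain, since how reads that match several genes were treated is not given in the sources used here.

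Among the receptors, Klrd1, Klrc1, Klrk1 and Klra4 were higher in every deficient library than in any control library. Levels are in CPM, counts scaled to a common library total. Klrd1 (ENSMUSG00000030165, GRCm38 chromosome 6, 129591782 to 129598775, plus strand) ran from 8.04 to 18.0 CPM in deficient libraries, with a median of 9.39, and stood at 0.345, 0.641 and 1.39 CPM in control libraries. Those control values rest on 2, 4 and 9 counts. The mean was 12.4 ± 4.46 CPM in deficient cells (SD, n = 7) and 0.793 ± 0.540 CPM in control cells (SD, n = 3), and the fitted log2 fold change, deficient over control, was 3.90 (SE 0.396).

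Klrc1 (ENSMUSG00000030167, chromosome 6, 129666015 to 129678973, minus strand) had the highest mean CPM of the receptors in deficient cells, from 10.5 to 42.9 CPM in deficient libraries with a median of 20.8. Control libraries held 1.21, 0.962 and 0.928 CPM. The deficient mean of 24.7 ± 12.7 CPM (SD, n = 7) was 23.9 times the control mean of 1.03 ± 0.152 CPM (SD, n = 3), with a log2 fold change of 4.53 (SE 0.764). Its near copy Klrc2 (ENSMUSG00000052736, 129647496 to 129660689, minus strand) was lower in both groups, at 0.285 to 1.64 CPM in deficient libraries (median 1.25) and at 0.172, 0.160 and 0.464 CPM in control libraries, which is 1, 1 and 3 counts. The lowest deficient libraries overlapped the highest control library for Klrc2. Of the counts of Klrc1 and Klrc2 together, Klrc1 took 94.3% to 97.6% in deficient libraries. It took 7 of 8, 6 of 7 and 6 of 9 counts in control libraries, or 87.5% (exact 95% interval 47.3 to 99.7%), 85.7% (42.1 to 99.6%) and 66.7% (29.9 to 92.5%), where the interval of control library 3 lies below the share of every deficient library and those of control libraries 1 and 2 contain these shares. The deficient shares have intervals too, and those of libraries 2, 3, 4 and 7 start at 91.7%, 91.5%, 90.9% and 91.5%. They overlap the interval of control library 3. The intervals cover counting error only, and reads common to both genes add to it.

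Klrk1 (ENSMUSG00000030149, chromosome 6, 129610323 to 129623864, minus strand), the NKG2D gene, ran from 10.4 to 31.5 CPM in deficient libraries with a median of 14.1. Control libraries held 0.517, 2.08 and 2.94 CPM. The means were 19.0 ± 9.32 CPM in deficient cells (SD, n = 7) and 1.85 ± 1.23 CPM in control cells (SD, n = 3), with a log2 fold change of 3.32 (SE 0.580).

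The other receptors were scarce. Klra4 (ENSMUSG00000079852, chromosome 6, 130043731 to 130067271, minus strand) encodes Ly49D, an activating receptor of the Ly49 family. It ran from 0.758 to 3.45 CPM in deficient libraries, with a median of 1.56, and had 0 counts in all 3 control libraries. Setting the summed control counts to 3, it was at least 12.3-fold higher in deficient cells. Klrg1 (ENSMUSG00000030114, chromosome 6, 122270596 to 122282882, minus strand) encodes an inhibitory receptor for cadherins and lies outside the NK gene complex. It ran from 0.464 to 2.08 CPM in deficient libraries (median 0.625), against 0.172, 0.321 and 0.464 CPM in control libraries, and the groups met at their edge. Its log2 fold change was 1.65 (SE 0.630), and that of Klrc2 was 1.91 (SE 0.677).

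Ncr1 (ENSMUSG00000062524, chromosome 7, 4337724 to 4345164, plus strand), which encodes NKp46 and defines NK cells, was the receptor that did not share this direction. It ran from 0.227 to 0.996 CPM in deficient libraries, with a median of 0.469, and stood at 0.517, 0.641 and 2.01 CPM in control libraries. The groups overlapped, and the log2 fold change was -0.86 (SE 0.511). Control library 3, with 13 counts, set much of that value, since without it the change was -0.33.

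The ligands of NKG2D took opposite directions. H60b (ENSMUSG00000075297, chromosome 10, 22158586 to 22288849, plus strand) was present in control libraries at 15.3, 14.6 and 16.1 CPM, from 89, 91 and 104 counts. In deficient libraries it had 3 counts in all, 1 each in libraries 1, 2 and 7 and 0 in the other 4. The pooled ratio, deficient over control, was 0.00243 (95% counting interval 0.000498 to 0.00718), and the log2 fold change was -8.34 (SE 0.342). Raet1e (ENSMUSG00000053219, chromosome 10, 22158569 to 22374139, plus strand), which encodes a RAE-1 protein and overlaps H60b, had 6 counts over the 7 deficient libraries and 1 count over the 3 control libraries. That is a pooled ratio of 1.38 (0.168 to 63.5), and no difference was detectable at this depth.

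Ulbp1 (ENSMUSG00000079685, chromosome 10, 7440362 to 7473638, minus strand), which encodes MULT1, was the ligand expressed in both groups. It ran from 10.1 to 20.1 CPM in deficient libraries, with a median of 14.7, and stood at 6.55, 6.25 and 7.12 CPM in control libraries. The groups did not overlap. The means were 14.7 ± 3.36 CPM in deficient cells (SD, n = 7) and 6.64 ± 0.440 CPM in control cells (SD, n = 3), with a log2 fold change of 1.07 (SE 0.160).

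**Figure D1:**
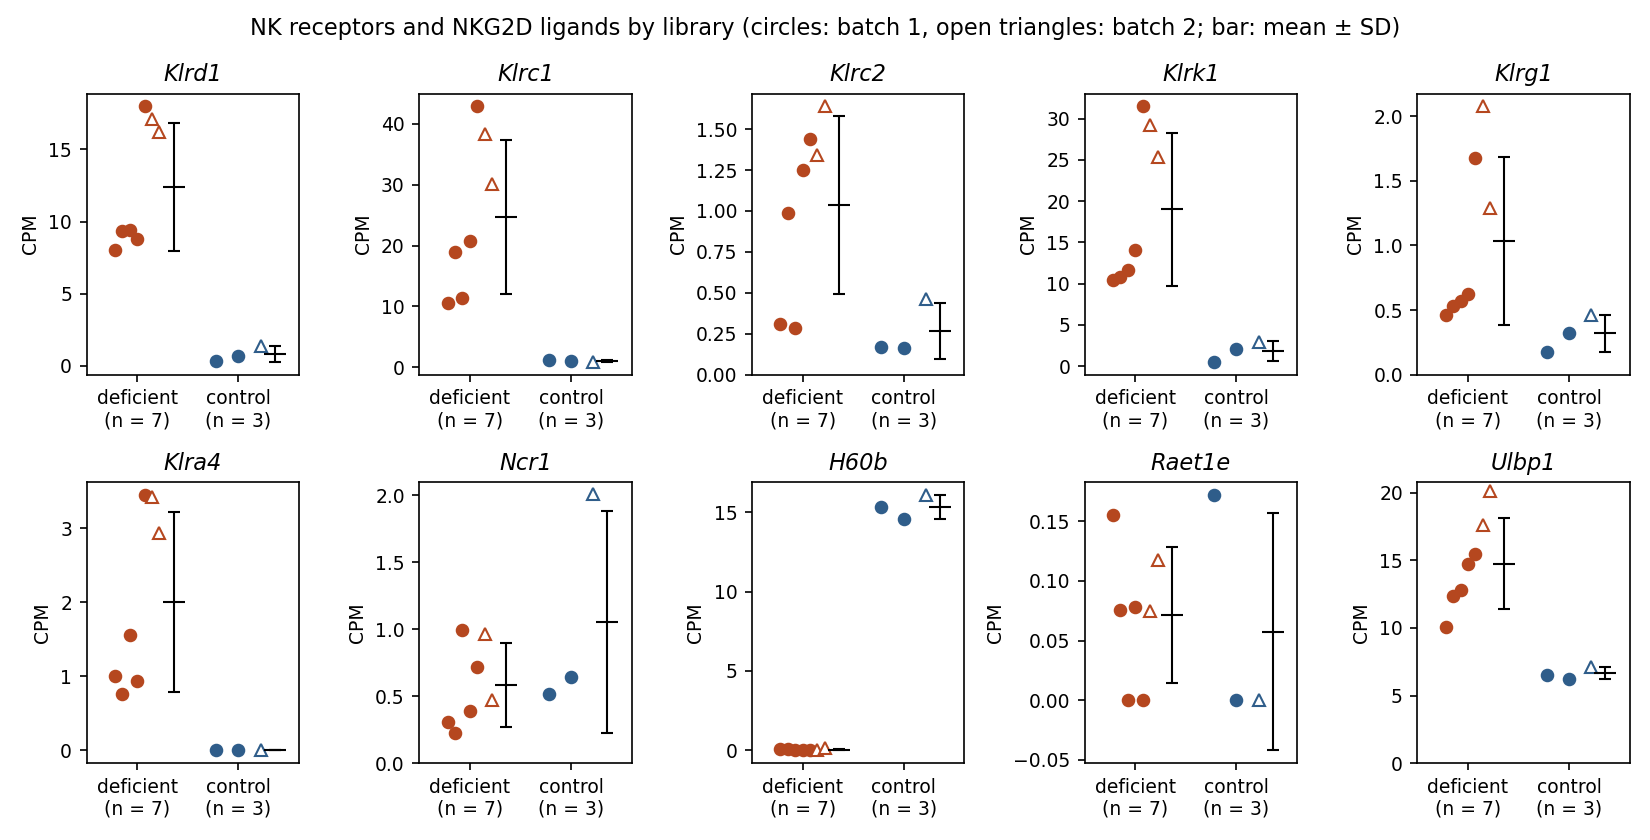
CPM of the 10 genes in each library, deficient (orange) beside control (blue), with a linear axis for each gene; circles are batch 1, open triangles batch 2, and the bar is the mean ± SD. Klrd1, Klrc1, Klrk1 and Ulbp1 sit higher in all 7 deficient libraries than in the 3 control libraries, and H60b sits at 14.6 to 16.1 CPM in control libraries alone; the SD bar of Raet1e reaches below 0, which no CPM can.

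Of the 9 genes that passed the filter, 7 had a fitted change of at least 2-fold upward in deficient cells and 1 (H60b) at least 2-fold downward. Over all 13699 genes tested, 11.8% and 9.17% did so. Groups did not overlap, deficient above, for Klrd1, Klrc1, Klrk1, Klra4 and Ulbp1, against 29.4% of all genes tested, and deficient below for H60b, against 21.4% of all genes tested. At an edgeR adjusted p below 0.05, 58.0% of all genes tested were called in either direction. The choice of the genes used these values, so nothing is read from the counts. In bulk libraries, fewer cells of a type cannot be told apart from less RNA per cell.

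Levels of different genes were set side by side per kilobase of merged exons, on the scale of CPM per kb. In deficient cells the order was Klrc1 at 12.5, Klrd1 at 9.68, Klrk1 at 2.65, Ulbp1 at 2.19, Klra4 at 1.61, Klrg1 at 0.732, Ncr1 at 0.379, Klrc2 at 0.178, Raet1e at 0.0331 and H60b at 0.0318. The order of the first 2 depends on the length used, since with the longest transcript Klrd1 stood at 13.5 and Klrc1 at 12.5. In control cells H60b led at 12.6 CPM per kb, with Ulbp1 next at 0.987 and Ncr1, Klrd1 and Klrc1 at 0.686, 0.619 and 0.520. The summed level of the NKG2 chains over that of their partner Klrd1, per length, was 0.789 to 1.56 in deficient libraries and 0.504 to 2.37 in control libraries, which overlap.

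The 7 deficient libraries were not alike. Libraries 5, 6 and 7 held more receptor RNA than libraries 1 to 4, although library 5 carries the label of batch 1. Whether that label is right is not known, and the batch term and every batch-adjusted fold change rest on it. Klrd1 stood at 16.2 to 18.0 CPM in libraries 5 to 7 and at 8.04 to 9.39 CPM in libraries 1 to 4. For Klrk1 these ranges were 25.4 to 31.5 CPM and 10.4 to 14.1 CPM, for Klrc1 30.1 to 42.9 CPM and 10.5 to 20.8 CPM, and for Klra4 2.93 to 3.45 CPM and 0.758 to 1.56 CPM. Klrg1 and Klrc2 showed the same order, and Ulbp1 too, at 15.5 to 20.1 CPM against 10.1 to 14.7 CPM. Ncr1 did not, since its ranges overlapped. These splits were seen in the values and carry no test. With libraries 5 to 7 set aside, a step added once the values were known, the log2 fold changes against the controls were 4.03 for Klrd1, 3.74 for Klrc1, 3.04 for Klrk1, 0.87 for Ulbp1, -0.54 for Ncr1 and -8.12 for H60b, while Klrc2 and Klrg1 fell below the count filter.

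The batch term asks whether batch 2 differed from batch 1 at the same diet, a contrast that did not choose the genes. All 9 genes tested had higher values in batch 2, by 0.09 (H60b) to 1.10 (Klrg1) on the log2 scale, and 0 passed edgeR's quasi-likelihood test with Benjamini-Hochberg adjustment over all genes (lowest adjusted p = 0.629), while 3 had an unadjusted p below 0.05. Over all genes 0 passed, 0.0%, with 7.58% at an unadjusted p below 0.05; DESeq2 and limma-voom also called 0, with 2 and 7 of the 9 genes at an unadjusted p below 0.05. Deficient library 5 decided this. Without it, 6 of the 8 genes tested had an adjusted p below 0.05, against 5.29% of all genes, and each was higher in batch 2, which 3.42% of all genes were. These were Klrd1 at 0.95, Klrc1 at 1.09, Klrk1 at 1.22, Klrg1 at 1.56, Klra4 at 1.64 and Ulbp1 at 0.50 on the log2 scale. With library 5 left out, however, batch among the deficient libraries is the same split as libraries 6 and 7 against 1 to 4, which was seen in the values, so these calls are a description and no test. Leaving out any other single library gave 0 calls. Whether the diet difference itself differed between the batches was tested by the product of diet and batch, in which 0 of the 9 genes and 0.0% of all genes passed edgeR, with 4.12% of all genes and 0 of the 9 at an unadjusted p below 0.05 (lowest adjusted p of the 9 genes 0.947); DESeq2 and limma-voom also called 0. With 1 control library in batch 2, that test has little precision.

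Across the 7 deficient libraries, the 7 genes with a mean of at least 1 CPM moved together. Pearson's r of log2(CPM + 1) over their 21 pairs ran from 0.546 (Klrc2 with Klra4) to 0.976 (Klrd1 with Klrk1), with a median of 0.836. Each r rests on 7 libraries that fall into a group of 4 and a group of 3, so it mostly restates that gap. Among 9865 other genes of at least 5 CPM, the pattern of Klrd1 was most like those of Amigo2, Upp1, Bend4, Serpine2 and H2-T22. For Klrk1 these were Edem1, Tut4, Gngt2, Cyth1 and Gmfg, and for Klrc1 they were P2rx7, Tax1bp1, Mx1, D630039A03Rik and Mcl1. Klrc2 gave Snx10, Lpxn, Harbi1, Poglut1 and Rb1, and Klrg1 gave Tbc1d10c, Adprh, Hk2 and Borcs6. Klra4 gave Dok1, Ppp1r16b, Npc2, Slc35a2 and Sesn3, and Ulbp1 gave Trpc4ap, Gm39323, Ccm2, Gm38372 and Klf7. These r ran from 0.969 to 0.999 and each gene list is fragile: of the 35 genes, 3 stayed among the 5 nearest whichever library was left out.

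Summed markers of NK cells and of CD8 T cells were higher in every deficient library than in any control library, and highest in deficient libraries 5 to 7. Other marker lists differed, as given below. The calls of markers stand beside 29.4% of all genes higher and 28.6% lower. Xcl1 of the NK cell list and Ccl5 of the CD8 T cell list, for instance, passed the count filter only through the deficient libraries. In control libraries Xcl1 stood at 0, 0.641 and 0.464 CPM and Ccl5 at 0, 0.481 and 0.309 CPM. The numbers of markers called are therefore a description. The summed level of 13 NK cell markers was 117 to 149 CPM in deficient libraries 1 to 4, 280 to 400 CPM in libraries 5 to 7 and 39.0 to 74.6 CPM in control libraries; 7 of the 12 tested were higher in deficient cells and 0 lower. The NK cell list shares Ncr1 with the genes described here. Gzma alone gave 79.0 to 103 CPM, 202 to 303 CPM and 23.7 to 52.3 CPM of these sums in the same order. The genes called higher were Gzma, Tyrobp, Fcer1g, Itga2, Cd244a, Prf1 and Xcl1, with Cd244a at 2.98, Xcl1 at 2.72 and Itga2 at 1.90 on the log2 scale. Ncr1, Klrb1c, Klre1, Klri2 and Eomes were tested and not called. Ncr1 stayed at 2.01 CPM or less and Itgam, which was not tested, at 0.464 CPM or less in every library. The sum of 9 CD8 T cell markers was 666 to 1020 CPM, 1450 to 1910 CPM and 96.5 to 196 CPM in the same order, with 7 of 8 tested higher and 0 lower. Gzmb made up most of it, at 457 to 773 CPM, 956 to 1230 CPM and 52.9 to 110 CPM. Gzma, Prf1 and Eomes stand in both lists, so the sums are not separate evidence. Cd8a itself read 5.26 to 10.8 CPM in deficient libraries 1 to 4, 35.3 to 54.3 CPM in libraries 5 to 7 and 0, 0.641 and 1.55 CPM in control libraries, while Gzmk stayed at 0.155 CPM or less in every library.

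Markers of B cells summed to 56.5 to 84.4 CPM in deficient libraries 1 to 4 and 294 to 331 CPM in libraries 5 to 7 (2 of 8 higher, 0 lower). Control libraries 1, 2 and 3 stood at 18.8, 16.2 and 106 CPM. Control library 3, of batch 2, was thus above deficient libraries 1 to 4. It also had the highest NK cell and CD8 T cell sums of the controls, 74.6 and 196 CPM. Gamma-delta and NKT cell markers stood at 8.54 to 14.8 CPM in deficient and 3.71 to 6.21 CPM in control libraries (1 of 3 tested higher, 0 lower). ILC2 markers stood at 20.8 to 32.2 CPM in deficient and 27.9 to 48.6 CPM in control libraries (2 of 5 higher, 2 lower), with Nmur1 at 0 throughout. Monocyte and dendritic cell markers stood at 5.55 to 9.78 CPM in deficient and 15.9 to 18.0 CPM in control libraries (1 of 4 higher, 1 lower). The genes that define helper T and TH2 cells were present in every library, summing to 1640 to 1760 CPM in deficient and 2230 to 2290 CPM in control libraries (2 of 11 higher, 7 lower). Cd4 alone gave 298 to 396 CPM and 707 to 734 CPM of these sums. The 2 called higher were Il5, by 0.84, and Il13, by 1.21 on the log2 scale. The part of other cells in the receptor levels was not tested.

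**Figure D2:**
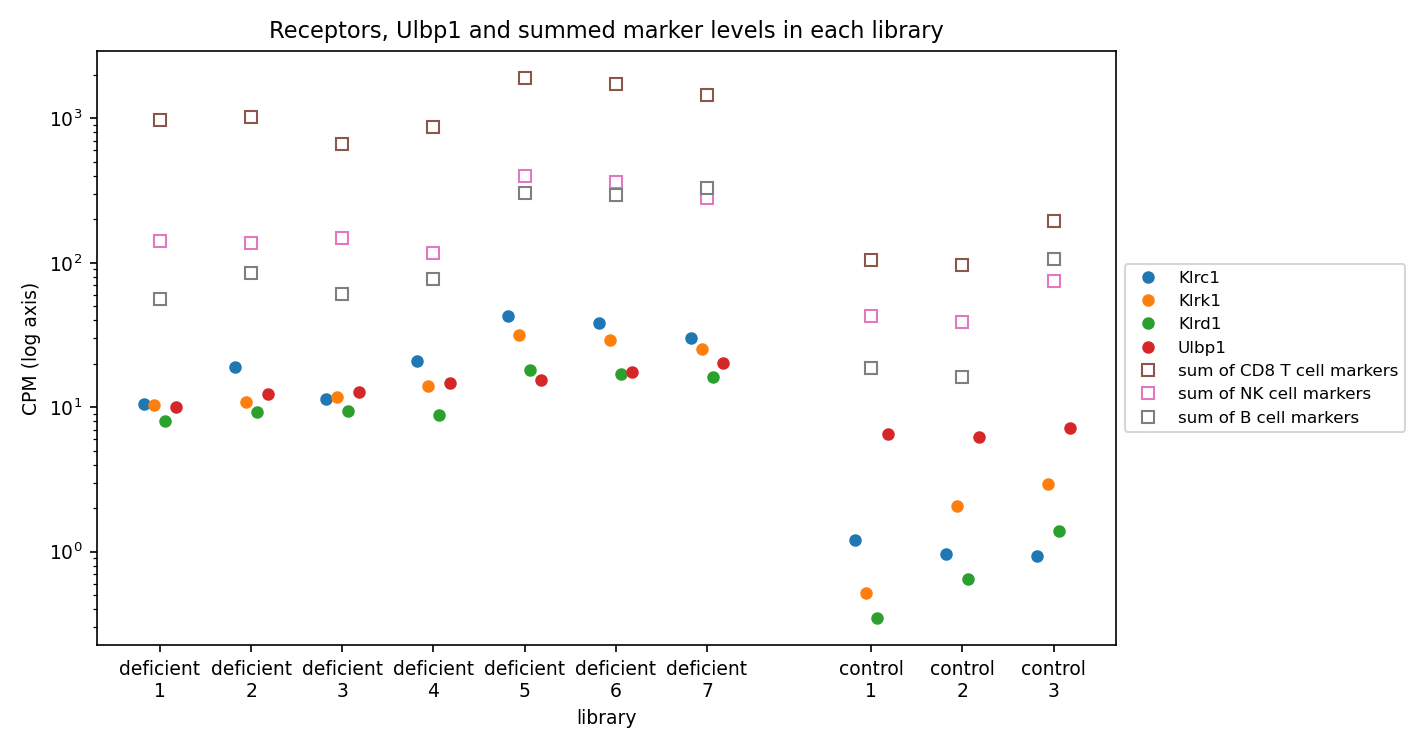
CPM on a log axis in each of the 10 libraries for Klrc1, Klrk1, Klrd1 and Ulbp1 (filled circles) and for the summed CD8 T cell, NK cell and B cell markers (open squares). Deficient libraries 5 to 7 are higher than libraries 1 to 4 in each receptor and each sum, and CD8 T cell markers sum to 666 to 1910 CPM in deficient and 96.5 to 196 CPM in control libraries.

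Klrd1, Klrk1, Klrc1, Klrc2 and Klra4 lie in the NK gene complex, a cluster of lectin-like receptor genes on chromosome 6, taken here from Klrb1a to Klra2 (128609227 to 131247362). Of its 120 annotated genes 27 were tested. Of the 22 tested that are not among those described above, 15 were higher in deficient cells and 1, BC064078, was lower at -1.29 (edgeR adjusted p below 0.05), with a median log2 fold change of 1.78. Over all genes, 29.4% were higher and 28.6% lower, and the median was 0.02. Some of the higher genes passed the count filter only through the deficient libraries. Klra8, Klra1, Klrb1b and Clec7a, for instance, had 0, 1, 1 and 1 control counts. The share and median of the complex are therefore a description. Within 500 kb of Klra4 the called genes were Klra1, Klra7, Klra13-ps, Klra3 and Klra8, all higher. Klra8, which encodes the activating receptor Ly49H, had 0 control counts and was at least 8.05-fold higher over the pooled libraries. It ran from 0.0773 to 1.14 CPM in deficient libraries 1 to 4 and from 1.92 to 2.83 CPM in libraries 5 to 7. The Klra genes resemble each other in sequence. Near Klrd1 and Klrk1, Olr1 was higher by 2.76 (SE 0.335, edgeR adjusted p = 6.04e-06), Clec2d by 0.40 and Gabarapl1 by 0.20, and Clec7a had 121 counts in deficient and 1 in control libraries. Cd69, an activation marker in the same stretch, stood at 148 ± 17.3 CPM in deficient cells (SD, n = 7) and 132 ± 7.79 CPM in control cells (SD, n = 3), with an edgeR adjusted p of 0.474.

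**Figure D3:**
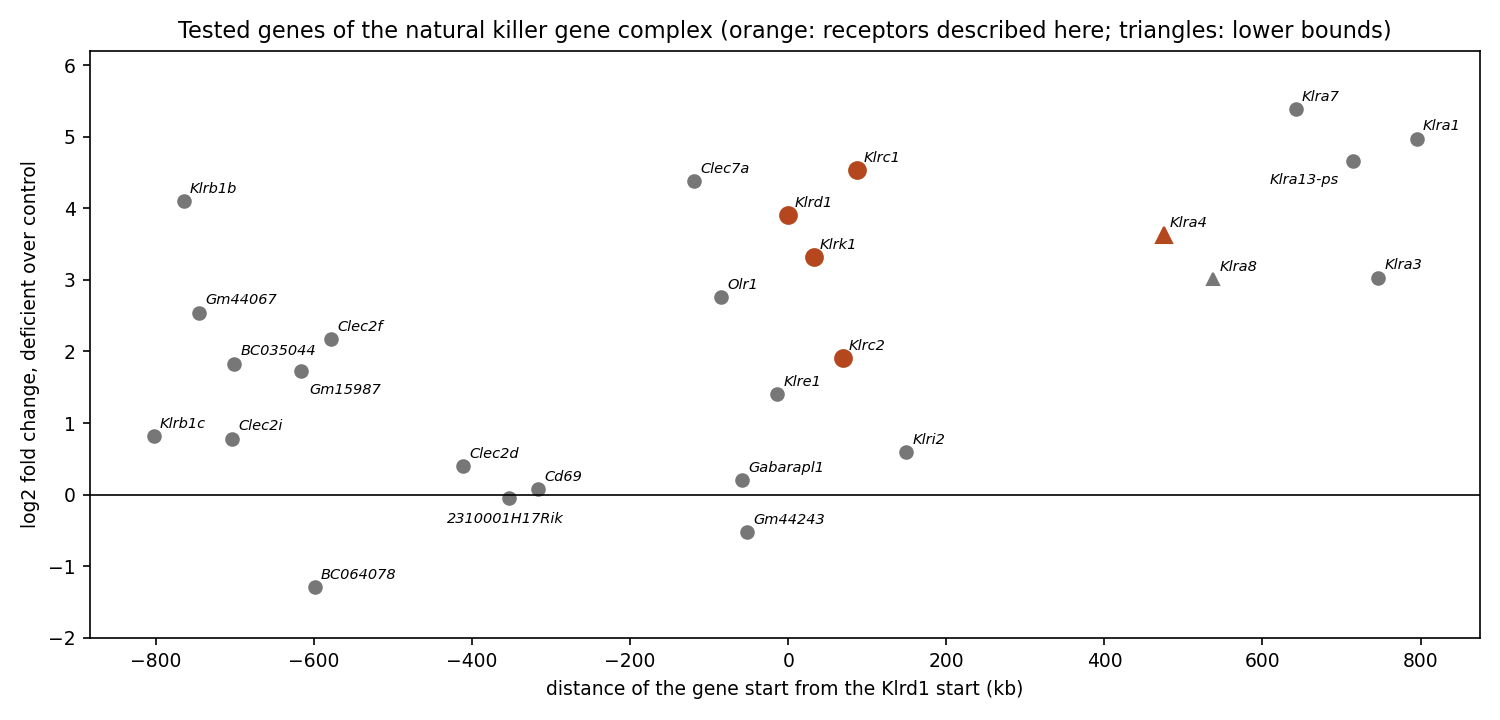
Log2 fold change, deficient over control, of the 27 tested genes of the NK gene complex against the distance of their start from that of Klrd1 in kb; orange marks the receptors described here, grey the other genes, and triangles lower bounds of genes with 0 control counts. Most points lie above 0, and BC064078 at -1.29 is the lowest.

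The other loci were mixed. Around Klrg1, 3 of 8 tested neighbours were higher and 3 lower, with Apobec1 at 1.62 and M6pr at 0.51 among the higher and Slc2a3 at -0.89 and Gm10420 at -1.07 among the lower. Around Ncr1 6 of 18 were higher and 4 lower, those of smallest adjusted p being Isoc2b at 3.42, Kmt5c at -1.05, Hspbp1 at 1.07 and Rdh13 at 0.67. Around Ulbp1 3 of 11 were higher and 4 lower, those of smallest adjusted p being Zc3h12d at -1.09, Ginm1 at 0.52, Pcmt1 at -0.56 and Katna1 at 0.39. At the shared locus of H60b and Raet1e 2 of 7 were higher (Tbpl1 at 1.00, Gm5421 at 1.70) and 2 lower (E030030I06Rik at -1.73, Gm26740 at -2.81). H60b lies within the span of Raet1e on the same strand, and Gm26740 overlaps both on the other strand with 17 counts in deficient and 29 in control libraries, so reads there may be shared. Over all loci, 29 of 66 neighbours tested were higher and 14 lower. That total includes the NK gene complex, with 15 higher and 1 lower of 22. Beside these counts, 29.4% of all genes tested were higher and 28.6% lower.

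The start regions of some of these genes are printed because the receptors moved together and because H60b and Raet1e, which share a locus, did not. RefSeq (GRCm38.p6) gave a window of 250 bases before to 50 after the start for 7 of the 10 genes, the exceptions being Klrd1, Klrg1 and H60b; the first Raet1e window also contains the annotated start of H60b at 22158586, beside that of Raet1e at 22158569. Capitals mark matches on either strand to a Runx motif (TGTGGT), an Ets motif (CAGGAAG), a T-box motif (GTGTGA) or a direct repeat of GGTCA with 4 bases between the copies, which is the vitamin D receptor's repeat of AGGTCA spaced by 3 bases without its first base. No matches overlap in these windows.
Klrc1, chr6:129678924-129679223, minus strand: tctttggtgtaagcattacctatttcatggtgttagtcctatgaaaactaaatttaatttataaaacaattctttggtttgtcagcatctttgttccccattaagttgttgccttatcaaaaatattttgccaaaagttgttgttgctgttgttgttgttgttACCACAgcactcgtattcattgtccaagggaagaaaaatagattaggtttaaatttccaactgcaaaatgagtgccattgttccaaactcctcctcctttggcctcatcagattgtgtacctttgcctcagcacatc
Klrc2, chr6:129660547-129660846, minus strand: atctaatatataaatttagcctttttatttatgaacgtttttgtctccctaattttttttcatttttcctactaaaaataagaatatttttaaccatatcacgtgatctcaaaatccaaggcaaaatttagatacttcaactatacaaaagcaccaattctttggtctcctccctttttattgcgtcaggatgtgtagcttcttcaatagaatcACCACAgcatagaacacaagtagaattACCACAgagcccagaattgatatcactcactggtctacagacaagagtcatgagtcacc
Klrk1, chr6:129623815-129624114, minus strand: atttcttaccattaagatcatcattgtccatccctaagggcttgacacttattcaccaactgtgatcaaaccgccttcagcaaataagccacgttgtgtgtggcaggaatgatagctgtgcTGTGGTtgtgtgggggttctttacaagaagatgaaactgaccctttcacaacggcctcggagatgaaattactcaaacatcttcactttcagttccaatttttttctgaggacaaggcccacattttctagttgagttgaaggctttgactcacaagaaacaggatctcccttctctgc
Raet1e and H60b, chr10:22158319-22158618, plus strand: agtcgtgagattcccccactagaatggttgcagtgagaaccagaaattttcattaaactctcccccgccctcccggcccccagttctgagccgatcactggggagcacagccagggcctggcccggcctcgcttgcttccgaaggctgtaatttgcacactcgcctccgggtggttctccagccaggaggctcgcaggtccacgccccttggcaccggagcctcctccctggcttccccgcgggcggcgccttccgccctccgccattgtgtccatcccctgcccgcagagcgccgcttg
Ulbp1, chr10:7473428-7473727, minus strand: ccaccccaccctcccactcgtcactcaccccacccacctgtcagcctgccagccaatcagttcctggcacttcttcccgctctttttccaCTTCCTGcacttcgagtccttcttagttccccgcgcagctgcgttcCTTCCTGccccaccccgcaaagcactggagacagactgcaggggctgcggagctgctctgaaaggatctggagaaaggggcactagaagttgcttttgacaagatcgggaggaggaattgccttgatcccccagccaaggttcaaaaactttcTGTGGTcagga
The Runx motif occurs 1 time in the Klrc1 window, 2 times in that of Klrc2 and 1 time in those of Klrk1 and Ulbp1, and 16.8% of all 32851 windows hold it. Ulbp1 also has 2 Ets matches, a motif held by 13.3% of windows. The window of Raet1e and H60b holds none of the 4, nor does that of Klra4, and the Ncr1 window holds 1 T-box match (14.5% of windows) and 2 Runx matches. The GGTCA repeat is in none of the 7 genes' windows and in 0.0457% of all windows. A match is a run of letters in a short window and not a bound site.

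Other genes of the pathway were examined through 5 lists. Rises, falls and other changes given without a unit, here and for the loci above, are on the log2 scale. Of 35 other NK receptor genes 19 were tested, of which 11 were higher, 3 lower and 5 not called, with a median log2 fold change of 1.40, beside 29.4% of all genes higher and 28.6% lower. Some of the higher ones, such as Klra8, Klra1 and Klrb1b, passed the count filter only through the deficient libraries, so this share is a description. Crtam, a receptor of activated cytotoxic cells, had 40.5 to 69.6 CPM in deficient libraries and 4.65, 4.49 and 3.40 CPM in control libraries, a rise of 3.58 (SE 0.217, edgeR adjusted p = 4.41e-08). The inhibitory Ly49 genes Klra7 (Ly49G), at 7.40 to 23.4 CPM in deficient libraries and 0.172, 0.321 and 0.464 CPM in control libraries, and Klra1 (Ly49A), with 167 counts against 1, were also higher. Cd226, an activating receptor that shares its ligands with Tigit, rose by 0.57 (SE 0.0796, adjusted p = 2.16e-05). The inhibitory receptor genes Lair1, Tigit and Ceacam1 fell by 2.26, 0.54 and 1.40 (edgeR adjusted p = 0.00295, 0.0153 and 0.0176). Without deficient libraries 5 to 7 the list had 10 higher and 3 lower of 15 tested.

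The adaptors of the receptors were not alike. Tyrobp encodes DAP12, the adaptor of NKG2C, Ly49D and Ly49H and, beside DAP10, of NKG2D. It ran from 1.59 to 8.17 CPM in deficient libraries and stood at 1.38, 0.641 and 0.309 CPM in control libraries (log2 2.30, edgeR adjusted p = 0.0397). Hcst, which encodes DAP10, had 4.77 ± 0.705 CPM in deficient cells (SD, n = 7) and 5.81 ± 0.894 CPM in control cells (SD, n = 3). It was not called (edgeR adjusted p = 0.105). Fcer1g, a further adaptor, rose by 2.26 (SE 0.456, adjusted p = 0.000836). Of the 27 adaptor and signalling genes tested, 8 were higher, 7 lower and 12 not called, with a median of 0, beside 29.4% of all genes higher, 28.6% lower and a median of 0.02. These shares are near those of all genes. Besides Fcer1g, the higher ones included Lat2 at 1.27, Fyn at 0.34 and Crk at 0.20. The phospholipase gene Plcg1 fell by 0.97 (SE 0.0608, adjusted p = 4.48e-09), the exchange factor genes Vav3 and Vav2 by 1.49 and 0.62, and the kinase gene Lck by 0.36. Without control library 2, 3 of these genes were higher.

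Among ligands of other NK receptors, 8 of 15 tested were higher, 3 lower and 4 not called, with a median of 0.78, beside the same shares of all genes. The class I genes that Ly49 receptors read were higher. H2-K1 had 1790 ± 141 CPM in deficient cells (SD, n = 7) and 308 ± 15.7 CPM in control cells (SD, n = 3), a rise of 2.46 (SE 0.0642, edgeR adjusted p = 2.32e-13). H2-D1 rose by 1.83 and B2m, the shared light chain, by 1.42. H2-T23, which encodes Qa-1, the ligand of CD94 with either NKG2 chain, stood at 182 ± 33.9 CPM in deficient cells (SD, n = 7) and 202 ± 3.60 CPM in control cells (SD, n = 3) and was not called (log2 -0.23, edgeR adjusted p = 0.145). That mean spans 146 to 163 CPM in deficient libraries 1 to 4 and 203 to 226 CPM in libraries 5 to 7, against 198 to 205 CPM in control libraries. This split of H2-T23 was not tested. Clec2i, a lectin-like ligand of an NKR-P1 receptor, rose by 0.78. Nectin2 and Pvr, ligands of Cd226 and Tigit, fell by 1.63 and 0.54, and Cd48, the ligand of the receptor 2B4, by 0.18 (adjusted p = 0.0463).

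Of a list of 8 other NKG2D ligands and MHC class I-like relatives, H60c, Raet1d, Mill1 and Mill2 were matched to the table, and none of these 4 passed the filter. H60c had 0 counts in deficient libraries and 0.517, 0 and 0.155 CPM in control libraries. H60a, Raet1a, Raet1b and Raet1c were not analysed here.

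Of 22 tested transcription regulators of cytotoxic lymphocytes, 7 were higher, 8 lower and 7 not called, with a median of 0.09, beside 29.4% of all genes higher and 28.6% lower. Tbx21, which encodes T-bet, had 33.2 to 44.9 CPM in deficient libraries and 1.21, 0.641 and 0.619 CPM in control libraries, a rise of 5.45 (SE 0.207, edgeR adjusted p = 1.96e-11). Hopx, a homeodomain-only transcriptional cofactor, had 26.9 to 41.5 CPM in deficient libraries and 0.345, 0.321 and 0.464 CPM in control libraries. Over the 3 control libraries, Tbx21 had 15 counts and Hopx 7. Hopx passed the count filter only through the deficient libraries, so the share of this list called higher is a description. Ikzf2 rose by 2.39 and Bhlhe40 by 0.82. Eomes, the T-box factor of mature NK cells, stood at 3.40 to 10.3 CPM in deficient libraries and 2.24, 2.08 and 4.95 CPM in control libraries and was not called (edgeR adjusted p = 0.0679). Gata3, the TH2 master regulator, fell by 0.84, Ets1 by 0.87, Id3 by 0.83 and Stat4 by 0.67.

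**Figure D4:**
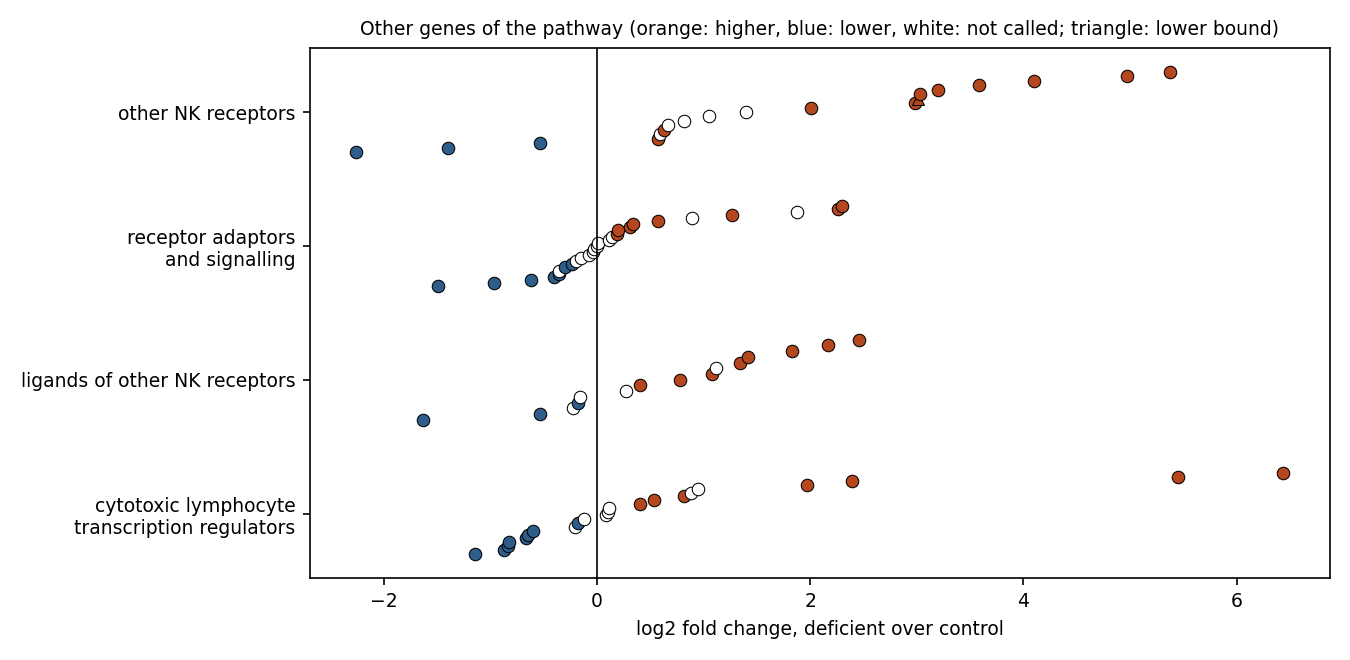
Log2 fold change, deficient over control, of each tested gene in 4 lists of pathway genes; orange marks genes called higher, blue lower and white not called, and a triangle is a lower bound. The list of other NK receptors reaches from -2.26 to 5.38, with 11 of 19 genes called higher.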

How the data were processed

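RNA was taken on day 5 and made into libraries with a stranded total RNA kit that depletes globin, per the labels' protocols. The deposited values are raw read counts per Ensembl gene made with STAR 2.7.10a and HTSeq 0.13.5, per the submitters' processing notes, which name the build GRCm38. Neither the strand setting nor the annotation release is given in the sources used here. Of 49671 IDs, 49412 matched GENCODE M21, which gave names and coordinates.

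Counts were fitted in R 4.3.3 with edgeR 4.0.16 (filterByExpr with a minimum count of 10, TMM, robust quasi-likelihood, terms for diet and batch), which left 13699 genes. Calls are at a Benjamini-Hochberg adjusted p below 0.05 over all genes. Log2 fold changes are deficient over control. CPM uses plain totals. A group with 0 counts is set to 3 counts for a lower bound, and groups with 1 to 3 counts have an exact conditional 95% interval; both cover counting error only. Depth of the control libraries limits the low genes. The fit for diet was tested on simulated counts.

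The genes and lists were chosen with earlier results of these data known. Named genes of a list are up to 4 called in each direction with the smallest adjusted p; Tyrobp, Hcst, H2-T23, Eomes, Cd69, Klra8 and H60c are named besides. For likeness the 5 genes of highest r were taken, of which 1 is not reported here, and for loci the called neighbours. Alternatives were DESeq2 1.42.0, limma 3.58.1 voom, other scalings and filters, no robust estimation, no batch term, each batch alone and each library left out; counts thinned to the shallowest library and fits without deficient libraries 5 to 7 were added after the data were seen. Replicate numbers follow accession order. Figures were drawn with matplotlib 3.10.9.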

Additional observations from a re-analysis of the deposited data

How the results depend on the processing

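The direction of each of the 9 genes' log2 fold changes held under every alternative in which the gene was tested. The range was 3.51 to 4.30 for Klrd1, 3.74 to 5.14 for Klrc1, 3.02 to 3.59 for Klrk1, 0.87 to 1.33 for Ulbp1, 1.51 to 2.25 for Klrc2, 1.34 to 1.86 for Klrg1, -8.71 to -7.44 for H60b and -1.44 (batch 2 alone) to -0.33 (without control library 3) for Ncr1. That of Klra4 depends on the prior count.

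Genes at least 2-fold higher numbered 4 in place of 7 with a minimum count of 50, where fewer were tested, and 6 to 7 with a library left out. They also numbered 4 without deficient libraries 5 to 7, where Klrc2 and Klrg1 were not tested and Ulbp1 had a log2 fold change of 0.87. Genes at least 2-fold lower numbered 2 in batch 2 alone and 1 to 2 with a library left out, Ncr1 joining H60b without control library 1 or deficient library 3. Batch called 1 gene, Klrd1, with no count filter and 0 to 6 with a library left out; the product of diet and batch called 0 throughout, and could not be fitted without control library 3 or deficient libraries 5 to 7.

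Other NK receptors called higher numbered 6 with a minimum count of 50 (11 to 12 with a library left out), and those lower 1 in batch 2 alone (1 to 3, with 1 without control library 2). Adaptors called higher numbered 5 with limma-voom and in batch 1 alone (3 to 10; lower 5 to 7). Ligands called higher numbered 5 in batch 2 alone (6 to 8; lower 2 to 4), and regulators called lower 5 in batch 2 alone (5 to 8, with 5 without control library 2; higher 7 to 9). Neighbours numbered 19 higher and 9 lower with a minimum count of 50 (25 to 31 and 13 to 15). Over all genes, leaving out a library gave 3432 to 4107 higher and 3341 to 3988 lower, and the median r between the genes was 0.807 to 0.890. Where fewer genes were not the construction of the alternative, the cause was not tested. No paired analysis was possible because replicate numbers follow accession order. Control depth limits the genes with few control counts.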
